A study of Mus musculus with 2 samples.

Results

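The circadian clock genes examined here are 10 mouse genes, Clock, Npas2, Per1, Per2, Per3, Cry1, Cry2, Rora, Nfil3 and Dbp, and the question was how their DNA methylation differed between PDGFRα+ and CD137+ fat precursor cells. They were followed through every differentially methylated region, as listed by the study's authors, that touches the RefSeq span of 1 of these genes or the 2 kb on either side of it. Of 28141 listed regions, 24 met this rule, in 9 of the 10 genes, and no region belonged to 2 of them. Members were picked by name as clock genes, with earlier results of these data already known, so the number of members that hold a region supports nothing by itself.

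One library was made from cells sorted with magnetic beads for PDGFRα (CD140), a growth factor receptor of mesenchymal progenitors. The other, against which it was compared, was made from cells sorted for CD137, a marker of beige adipocyte precursors. Both came from adipose tissue of C57BL/6 mice, subcutaneous or visceral, and the labels do not say which depot gave which library. The cells of both were grown in culture, given an adipogenic cocktail and treated with dexamethasone, a synthetic glucocorticoid, at 1 µM, so every value below is from dexamethasone-treated cells. With 1 library per group there is no replicate, no test was possible, and the cell population cannot be told apart from the library. Age and sex of the mice, the number pooled and the read depth are not stated in the sources used here. A methylation level is the fraction of a region's cytosines read as methylated, averaged over the cells of a library, and the differences below are the PDGFRα+ level minus the CD137+ level.

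The mammalian clock is a feedback loop of transcription. CLOCK, or its paralogue NPAS2, pairs with BMAL1 and binds E-boxes in the promoters of the Per and Cry genes, whose protein products then enter the nucleus and inhibit that pair. An interlocking loop uses nuclear receptors, where ROR proteins activate and REV-ERB proteins repress the gene of BMAL1 through ROR elements. An output branch runs through D-boxes, which DBP activates and NFIL3 represses. In adipose tissue the clock times lipid storage and release, and glucocorticoids are known to reset clocks of peripheral tissues, in part by inducing Per1.

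The stretch before a gene's start is one place where these factors bind, and none of the available start windows of the clock genes held a listed region. RefSeq windows of 300 bases ran from 250 before to 50 after a start (GRCm38.p6, the assembly of mm10). They were available for 9 of the members, all but Per2, with 12 windows in all, and 0 of the 12 overlapped a region. Over all genes 468 of 32851 windows (1.42%) did, so a count of 0 in 12 windows does not set the clock genes apart. Only regions called as different are listed, so the methylation level inside these windows is not known. All 12 windows held more CpG, the dinucleotide at which most methylation in mammals sits, than the median window. Their counts ran from 9 to 54 CpG, against a median of 7 and an upper quartile of 20 over all windows, so not every one was rich in CpG.

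Of the motifs searched on both strands, the E-box CACGTG stood in 2 of the 12 windows, those of Cry1 and 1 of Per1, against 7.15% of all windows. The variant E-box CACGTT also stood in 2, of Cry1 and Cry2, against 4.68% of all windows. The D-box TTATGTAA stood in 1, of Per3 (0.938% of all windows), and the ROR element TAGGTCA in 1, of Nfil3 (2.61%). The D-box form TTACGTAA (0.119% of all windows), the ROR form TGGGTCA (3.98%) and the cyclic AMP element TGACGTCA (1.79%) matched none of the 12. The same was true of the glucocorticoid element, searched as AGAACA or GGAACA, 3 bases of any kind and TGTTCT, which 3 and 8 of all windows held. A match is a run of letters and not a shown binding site. No motif letters overlapped those of another motif in the sequences printed here.

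The 250 bases before the start are shown for the 5 members whose windows held a motif, and for Rora, which held most of the regions. Capitals mark the motifs named above, read on either strand, and all sequences run 5′ to 3′ on the strand of the gene.

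Per1 (chr11:69098699-69098948, plus strand): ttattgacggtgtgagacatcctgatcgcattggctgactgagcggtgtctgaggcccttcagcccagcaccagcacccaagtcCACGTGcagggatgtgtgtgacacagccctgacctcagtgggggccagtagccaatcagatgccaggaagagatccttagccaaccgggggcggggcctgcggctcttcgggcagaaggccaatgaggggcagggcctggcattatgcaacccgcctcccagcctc
Per3 (chr4:151044666-151044915, minus strand): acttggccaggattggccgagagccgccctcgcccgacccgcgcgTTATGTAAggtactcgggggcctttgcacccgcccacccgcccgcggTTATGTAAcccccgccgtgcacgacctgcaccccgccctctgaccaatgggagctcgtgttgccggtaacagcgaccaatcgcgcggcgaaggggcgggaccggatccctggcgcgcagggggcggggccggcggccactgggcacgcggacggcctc
Cry1 (chr10:85185055-85185304, minus strand): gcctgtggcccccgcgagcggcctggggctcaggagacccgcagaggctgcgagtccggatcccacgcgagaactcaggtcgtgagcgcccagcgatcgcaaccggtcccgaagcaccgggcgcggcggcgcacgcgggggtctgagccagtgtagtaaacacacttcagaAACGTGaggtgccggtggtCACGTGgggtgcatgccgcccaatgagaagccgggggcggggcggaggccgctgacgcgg
Cry2 (chr2:92434070-92434319, minus strand): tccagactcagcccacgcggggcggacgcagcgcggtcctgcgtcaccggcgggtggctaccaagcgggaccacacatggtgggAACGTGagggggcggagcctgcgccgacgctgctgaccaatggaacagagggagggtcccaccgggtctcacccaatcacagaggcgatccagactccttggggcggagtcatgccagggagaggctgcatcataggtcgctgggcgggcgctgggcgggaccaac
Nfil3 (chr13:52981040-52981289, minus strand): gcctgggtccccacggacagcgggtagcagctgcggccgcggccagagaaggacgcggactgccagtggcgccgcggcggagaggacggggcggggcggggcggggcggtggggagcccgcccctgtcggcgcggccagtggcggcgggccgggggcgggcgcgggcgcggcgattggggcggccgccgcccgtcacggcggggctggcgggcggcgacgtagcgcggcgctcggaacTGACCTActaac
Rora (chr9:68653536-68653785, plus strand): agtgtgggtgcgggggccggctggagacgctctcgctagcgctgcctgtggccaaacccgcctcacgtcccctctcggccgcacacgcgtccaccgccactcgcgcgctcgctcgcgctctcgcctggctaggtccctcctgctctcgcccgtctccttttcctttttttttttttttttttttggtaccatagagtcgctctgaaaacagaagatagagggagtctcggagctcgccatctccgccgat

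In Cry1 the variant E-box started 79 and the E-box 60 bases before the start, and its nearest region was the closest to any of the 12 windows, 1.71 kb away. In Per1 the E-box began 166 bases before the start, and the variant E-box of Cry2 at the same distance. The D-boxes of Per3 began 205 and 158 bases upstream, and the ROR element of Nfil3 began 12 bases upstream. Rora had none of the motifs in its window.

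Across the clock genes, most regions were less methylated in the PDGFRα+ library. Of the 24 regions, 21 were lower and 3 higher, so 87.5% were lower (exact 95% binomial interval 67.6 to 97.3, for counting error only and with regions taken as independent). Over all listed regions 77.7% were lower in PDGFRα+, a value inside that interval, so no departure of the clock genes from the full list in direction can be read from these counts. In the 21 lower regions the PDGFRα+ level ran from 0.117 to 0.499 with a median of 0.260, and the CD137+ level from 0.604 to 0.954 with a median of 0.822. The 2 ranges did not overlap, in regions that the authors listed because the libraries differed there. The median difference was -0.55, against -0.53 over all lower regions. A difference of at least 0.6 in size was found in 6 of the 21 (28.6%), 5 of them in Rora and 1 in Clock, against 24.7% of all lower regions.

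**Figure D1:**
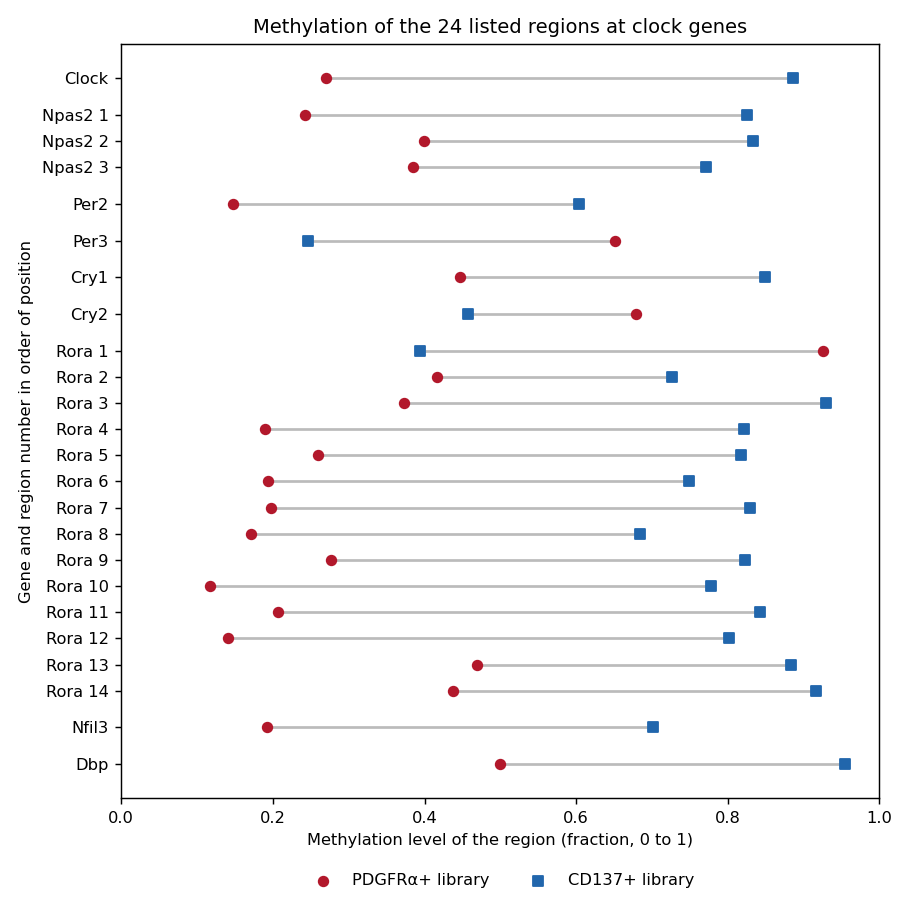
Methylation level (x axis, fraction) of each of the 24 regions at clock genes, 1 row per region, with the PDGFRα+ library as red circles and the CD137+ library as blue squares (1 library each, no error bars). The red circle lies left of the blue square in 21 rows and right of it in 3, those of Per3, Cry2 and the first region of Rora.

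The activators Clock and Npas2 held 1 and 3 listed regions, all lower in PDGFRα+, against 77.7% lower over all listed regions. In genes of 0.5 to 2 times their spans, 73.6% and 76% of regions were lower, so such small counts set neither gene apart. Clock, which encodes a DNA-binding partner of BMAL1, held 1 region, on chromosome 5 from 76236518 to 76236713 (mm10). Its level was 0.270 in PDGFRα+ cells against 0.886 in CD137+ cells, the widest gap at a clock gene outside Rora, with a difference of -0.62. The region lay 68.1 kb downstream of the first of the gene's start windows. Deposited starts are printed unchanged, and whether they count from 0 or 1 is not known.

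Npas2, whose product can take the place of CLOCK, held 3 regions, all lower in PDGFRα+. Nearest the start among the 3, at 11.5 kb, the region from 39205786 to 39205993 on chromosome 1 had a level of 0.242 in PDGFRα+ cells against 0.825 in CD137+ cells. The middle one, 39284858 to 39285114, had 27 cytosines, the most of any clock region, and levels of 0.399 in PDGFRα+ cells against 0.833 in CD137+ cells. The third, 39322099 to 39322242, had levels of 0.385 in PDGFRα+ cells against 0.772 in CD137+ cells. The CD137+ levels of the 3 thus lay close together, and the PDGFRα+ level was lowest at the 1 of the 3 nearest the start. A further lower region lay outside the gene, 6267 bases beyond its lower end, with levels of 0.395 in PDGFRα+ cells against 0.914 in CD137+ cells. At 6.59 kb from the start window it was nearer the start than any of the 3, so the PDGFRα+ levels showed no steady fall toward the start.

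Of the Per genes, which encode repressors of the loop, Per2 held 1 lower region, Per3 held 1 higher region and Per1 held none. Per2 held 1 short region of 56 bases and 5 cytosines, on chromosome 1 from 91458102 to 91458158, methylated to 0.148 in PDGFRα+ cells against 0.604 in CD137+ cells. This was the lowest CD137+ level among the lower regions. The region sat within the gene, 1193 bases from its upper end and 97.2% of the way along the span from its lower coordinate. These positions follow chromosome coordinates and not the direction of transcription, as no strand was available for Per2. Per2 had no start window, so the distance of its region from a start was not measured. It also lay within 2 kb of the long noncoding RNA gene Gm35591. Per3 held 1 region, on chromosome 4 from 151001499 to 151001604, which was higher in PDGFRα+, with levels of 0.651 in PDGFRα+ cells against 0.246 in CD137+ cells. It lay 43.1 kb downstream of the start of Per3 and also in Uts2, the gene of the peptide urotensin, whose span sits within that of Per3, so the region cannot be assigned to 1 of the genes.

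Per1 held no listed region. The nearest region on either side of it lay outside the 2 kb limit and was lower in PDGFRα+. On the side of the gene's end, at 2031 bases and so just beyond the limit, the region from 69111996 to 69112191 on chromosome 11 had levels of 0.0934 in PDGFRα+ cells against 0.682 in CD137+ cells and lay by tRNA genes. On the other side, 4083 bases out, a region at Vamp2, the gene of a vesicle fusion protein, had levels of 0.294 in PDGFRα+ cells against 0.945 in CD137+ cells. With 10 kb on each side Per1 would have 3 regions, all lower. The 1 region counted from within a flank was that of Dbp, 1051 bases out.

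The Cry genes, which encode the partners of the PER proteins in repression, likewise held 1 lower and 1 higher region. Cry1 held 1 region of 80 bases, on chromosome 10 from 85183216 to 85183296, at 1.76 kb downstream of the start, with a level of 0.447 in PDGFRα+ cells against 0.849 in CD137+ cells. Cry2 held 1 region of 619 bases, on chromosome 2 from 92422355 to 92422974, methylated to 0.678 in PDGFRα+ cells against 0.457 in CD137+ cells. At 0.22 this was the smallest difference at a clock gene, and only 199 of all listed regions (0.707%) had a difference under 0.3. The region was also the sparsest, with 1.94 cytosines per 100 bases, and lay in the long noncoding RNA gene D930015M05Rik as well. Within the 2 kb limit Per2 and Per3, and Cry1 and Cry2, thus had opposite signs, each resting on 1 region and 1 library per group. Over all listed regions 77.7% were lower and the rest higher, so no contrast between paralogues can be read from single regions. For the Cry genes the opposite signs depended on the limit. Outside Cry1, 9433 bases beyond its upper end, a region was higher in PDGFRα+, at 0.818 in PDGFRα+ cells against 0.365 in CD137+ cells, so with 10 kb on each side Cry1 had 1 lower and 1 higher region.

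Rora, which encodes the retinoic acid receptor-related orphan receptor alpha, held 14 of the 24 regions, and 13 of the 14 were lower in PDGFRα+ (92.9%, exact 95% interval 66.1 to 99.8). The shares lower over all listed regions, 77.7%, and in genes of 0.5 to 2 times its span, 83.5%, both lie inside that interval, so no departure of Rora in direction can be read from this count. The gene spans 735 kb on chromosome 9, from 68653404 to 69388246, and makes up 60.7% of the summed span of the 10 genes. In the 13 lower regions the level had a lowest value of 0.117, a median of 0.207 and a highest value of 0.470 in PDGFRα+. In CD137+ the same values were 0.684, 0.822 and 0.930. In 6 of the 13 the PDGFRα+ level was under 0.2, and in 9 of the 13 the CD137+ level was at least 0.8.

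Rora had 1 start window, and all its distances are counted from that start, so any other start of the gene is not covered. The exception in Rora was the region nearest that start. It lay 21.0 kb downstream, from 68674756 to 68675037, and had a level of 0.926 in PDGFRα+ cells against 0.393 in CD137+ cells, a difference of 0.53. The next region was 184381 bases further on and was lower in PDGFRα+, as were all later ones. That second region, 68859418 to 68860254, was the longest at any clock gene, 836 bases, and had the smallest difference in Rora, with levels of 0.417 in PDGFRα+ cells against 0.727 in CD137+ cells. It and the next 2 also lay in the long noncoding RNA gene Gm31262.

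The widest differences in Rora stood between 540.8 and 560.2 kb from its start, where 3 regions lay close together. Their levels were 0.117, 0.207 and 0.140 in PDGFRα+ cells against 0.777, 0.842 and 0.801 in CD137+ cells, in order of position. The third, 69213954 to 69214106, had the widest difference of all clock regions, -0.66, and 10.9% of all lower regions had a wider one. The middle of the 3 had a difference of -0.64. Regions away from these 3, at 258.9 and 398.2 kb, were nearly as wide, at -0.63 each. Toward the end of the gene the gaps were narrower again. At 590.0 kb the levels were 0.470 in PDGFRα+ cells against 0.883 in CD137+ cells. At 654.2 kb, in the region nearest the end (69307951 to 69308358, 20 cytosines, the most in Rora), they were 0.437 in PDGFRα+ cells against 0.917 in CD137+ cells.

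**Figure D2:**
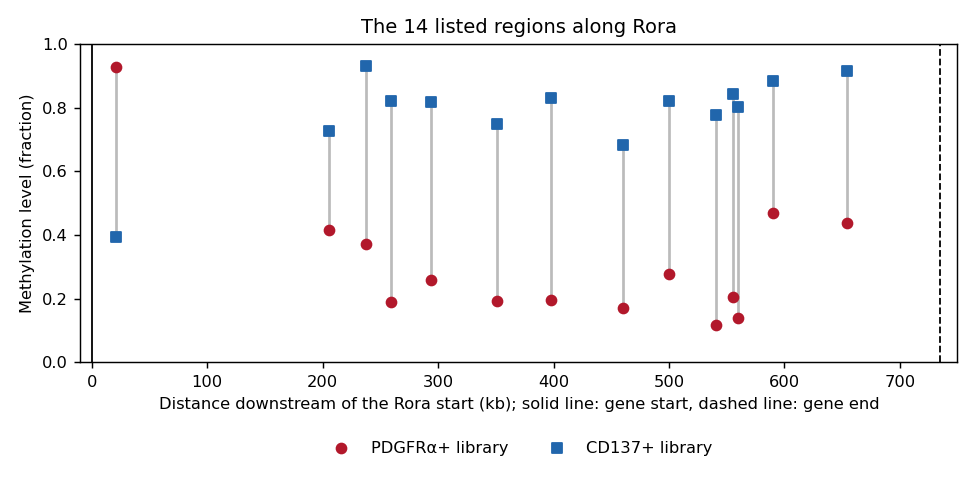
Methylation level (y axis, fraction) of the 14 regions of Rora by distance from the gene start in kb (x axis), with the PDGFRα+ library as red circles and the CD137+ library as blue squares, 1 library each. The region at 21.0 kb is higher in PDGFRα+, and the 13 regions from 205.6 to 654.2 kb are lower.

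Nfil3 and Dbp, the output pair with opposing actions on D-boxes, each had 1 region within the 2 kb limit, lower in PDGFRα+, and a higher one within 10 kb. Nfil3, which encodes the repressor, held 1 region 4.03 kb downstream of its start, on chromosome 13 from 52976731 to 52977007, methylated to 0.193 in PDGFRα+ cells against 0.702 in CD137+ cells. Outside the gene, 6101 bases beyond its upper end, a region at the noncoding gene Gm33424 was higher in PDGFRα+, at 0.901 in PDGFRα+ cells against 0.544 in CD137+ cells. Dbp, which encodes the activator, had its region 1.05 kb outside the gene, on chromosome 7 from 45711254 to 45711443. The level there was 0.499 in PDGFRα+ cells against 0.954 in CD137+ cells, on only 4 cytosines, the fewest any listed region has. That region lies within Sphk2, the gene of a sphingosine kinase whose span overlaps that of Dbp. Further out, 5934 bases beyond the upper end of Dbp, a region of 10 cytosines at Sphk2 and Rpl18 was higher in PDGFRα+, at 0.848 in PDGFRα+ cells against 0.203 in CD137+ cells, a wider difference than that of the region nearer to Dbp. The region 1.05 kb outside Dbp was the 1 region of the 24 outside its gene's span, and the other 23 lay wholly inside. Strand was taken from the start windows, and exons, introns and UTRs were not separated, since no exon annotation was used here.

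The number of regions went with the length of the gene. Of 21887 protein-coding genes, 6454 (29.5%) held a region, but the share was 12.6% among genes with 0.5 to 2 times the span of Dbp, 60.3% around that of Clock, 74.9% around that of Npas2 and 93.9% around that of Rora. Per1, without a region, is 14.9 kb long, and 21.6% of 7732 genes of like span held one. The other short members were Nfil3 and Cry2, where 22.3% and 31.7% of genes of like span held a region. For Per2, Per3 and Cry1 the shares were 38.7%, 41.1% and 44.5%. The 14 regions of Rora stood beside a median of 5 (quartiles 2 and 9) in 391 genes of like span, of which 48 (12.3%) had at least as many. Per 100 kb of span and flanks the clock genes together held 1.92 regions, and 1.95 without Rora, against 1.41 over all protein-coding genes. That background is not matched for length, so no excess at the clock genes can be read from it. The median in genes of like span was 0.929 for Rora (1.89 itself), 1.11 for Npas2 (1.73) and 1.10 for Clock (1.00). For each of the other members that median was 0.

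**Figure D3:**
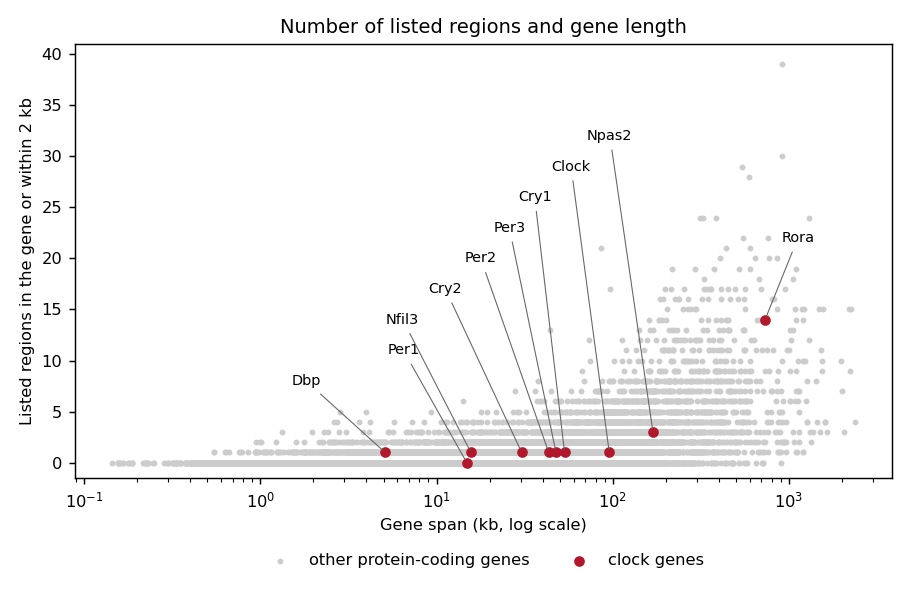
Number of listed regions in each protein-coding gene or within 2 kb of it (y axis) by gene span in kb (x axis, log scale), with the 10 clock genes in red and the other genes in grey. Rora has 14 regions and Npas2 has 3, Per1 has 0 and the other clock genes have 1 each.

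In features that the choice of members did not use, the clock regions had medians close to those of the full list. Their length had a median of 202 bases (range 56 to 836), against 216 over all regions. The median number of cytosines was 9 in both. Cytosine density had a median of 4.48 per 100 bases (range 1.94 to 10.5), against 4.62 over all regions. In all, the 24 regions covered 5983 bases and 252 cytosines. Leaving Rora out, 8 of 10 regions were lower (80.0%, exact 95% interval 44.4 to 97.5).

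Among 25 further genes of the clock and its regulators, 13 held a region, against 29.5% of all protein-coding genes without regard to length. Of these, 9 were mostly lower in PDGFRα+, 2 mostly higher and 2 evenly split, and 24 of their 33 regions (72.7%) were lower, against 77.7% of all listed regions. Their median difference was -0.52, against -0.49 over all regions. Arntl, the gene of BMAL1, was lower in both of its regions, with levels of 0.388 and 0.322 in PDGFRα+ cells against 0.841 in CD137+ cells at each. Its paralogue Arntl2 was higher in its only region, at 0.925 in PDGFRα+ cells against 0.570 in CD137+ cells. Nr1d1, which encodes REV-ERB alpha, the counterpart of the ROR proteins, had the widest difference of any of these genes, -0.77, with a level of 0.126 in PDGFRα+ cells against 0.898 in CD137+ cells, in a region 2522 bases downstream of its start. Nr1d2, its paralogue, had no region.

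Rorb, a paralogue of Rora, was lower in its only region, at 0.265 in PDGFRα+ cells against 0.780 in CD137+ cells. Tef and Hlf encode relatives of DBP. Tef was lower in its only region, at 0.291 in PDGFRα+ cells against 0.857 in CD137+ cells, and Hlf had 2 lower and 2 higher. Hlf's higher region nearest its start, 812 bases long with 37 cytosines, had levels of 0.936 in PDGFRα+ cells against 0.459 in CD137+ cells.

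Csnk1d and Csnk1e encode casein kinases that mark PER proteins for breakdown, and each was lower in its only region (0.214 and 0.319 in PDGFRα+ cells, 0.852 and 0.903 in CD137+ cells). Btrc, which encodes the ubiquitin ligase subunit that takes up phosphorylated PER, had 1 lower and 2 higher regions. Gsk3b, a kinase gene, was split between 1 lower and 1 higher region. Nampt, the gene of an enzyme of NAD synthesis, was lower in its only region, at 0.141 in PDGFRα+ cells against 0.882 in CD137+ cells. Prkaa2, a subunit gene of the AMP-activated kinase, was lower at 0.142 in PDGFRα+ cells against 0.748 in CD137+ cells. Ppargc1a, a coactivator gene of 662 kb that RORs work with, held 14 regions, as many as Rora. Of these, 11 were lower and 3 higher. Only those at 72830 and 104260 bases lay downstream of its first start window. The others lay upstream of it, at -28308 to -544852 bases, whereas those of Rora all lay downstream of its start. Besides Nr1d2, the genes that held none were Bhlhe40, Bhlhe41, Ciart, Fbxl21, Timeless, Tipin, Usp2, Noct, Prkaa1, Ppara and Sirt1.

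**Figure D4:**
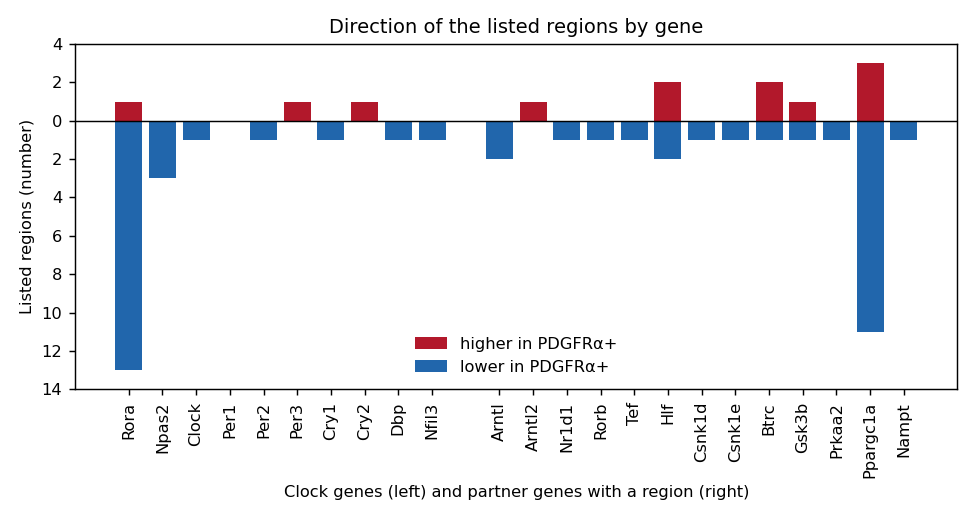
Number of listed regions higher (red, above 0) and lower (blue, below 0) in PDGFRα+ than in CD137+, for the 10 clock genes (left) and the 13 partner genes with a region (right). Rora has 13 lower regions and 1 higher, Ppargc1a has 11 lower and 3 higher, and Per1 has none.

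Markers of the sorted cells and of other cell types were read in the same way. Their counts stand beside 77.7% of all listed regions lower in PDGFRα+, and 29.5% of protein-coding genes with a region. Of 5 progenitor markers, Pdgfra had 1 lower region (0.210 in PDGFRα+ cells against 0.769 in CD137+ cells) and Dpp4 had 6 lower and 1 higher. Cd34, Ly6a and Dlk1 had none. Of 4 CD137+ beige markers, 1 had a region, Tmem26 (lower, 0.490 in PDGFRα+ cells against 0.831 in CD137+ cells), and Tnfrsf9, the gene of CD137, had none. Of 4 adipocyte markers, 1 had regions, Fabp4, with 1 lower and 1 higher. The immune marker Ptprc was higher in 8 of 8 regions (mean 0.861 in PDGFRα+ cells against 0.359 in CD137+ cells) and Cd3e was lower in 1, with none in Cd68. The 3 endothelial markers Pecam1, Cdh5 and Kdr were higher in all 7 of their regions. The mural markers Rgs5 and Acta2 were lower in 1 region each and Cspg4 had none. Methylation of a marker gene does not count cells, and the part of other cell types in the clock gene differences was not tested.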

How the data were processed

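Whole-genome bisulfite libraries, 1 per group, were sheared to about 350 bases before conversion, per the labels' protocols. The authors deposited 1 table of differentially methylated regions on mm10, per the submitters' processing notes. Per the file headers, it gives each region's methylation level in both libraries as a fraction, their difference, an area statistic (a score with no fixed range), the length and the number of cytosines. No aligner, caller, threshold or coverage minimum is named in the labels or headers, so these are not given in the sources used. Depth is unknown, so no level has an interval, and regions below the authors' limits are not listed (the fewest cytosines are 4 and the shortest region 51 bases).

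The difference was recomputed from the deposited levels and equals the deposited one within 0.0001. Regions were joined by an overlap of at least 1 base with gene spans plus 2 kb from RefSeq on GRCm38.p6, and all 10 members, 25 partner genes and 22 marker genes (6 lists) matched. Start windows are from the same source. The overlap search gave 0 wrong genes of 200 with simulated regions and 0 of 300 with the deposited ones. Counts, shares and medians are descriptions, with Clopper-Pearson intervals for shares, and no test was made with 1 library per group. Members and lists were chosen with earlier results of these data known, and not every gene of the lists as first written is reported here. All members were named. All regions were given for members with up to 5, and for Rora those of widest difference, greatest length, most cytosines and nearest the gene ends. Partner genes with a region were named by their counts. The other Rora regions, the levels of partner genes and the regions outside the limit were chosen after their values were seen. The planned motif search covered start windows only, as region sequences were not used here. Alternatives changed the minimum difference or cytosines, the area statistic, the flank, the overlap rule, merging and shared regions. The tools were scipy 1.17.1, pandas 2.3.3 and numpy 2.4.6 in Python 3.11.15, with matplotlib 3.10.9 for figures.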

Additional observations from a re-analysis of the deposited data

How the results depend on the processing

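Each of 9 summary values was recomputed under 10 other settings, and 6 of them also without Rora, a setting added after seeing the data. Of these 96 values, 81 stayed within 1.5 times the reported count or inside its interval. The share of clock regions that were lower in PDGFRα+ ran from 80.0% to 92.9% and their median difference from -0.57 to -0.44, and neither changed direction. Stricter limits cut the counts. With a difference of at least 0.5, there were 14 clock regions, 1 of them higher, in 4 members, at 1.12 per 100 kb. With at least 10 cytosines, 11 clock regions in 4 members remained (0.880 per 100 kb), with 8 at Rora and 6 partner genes. With an area statistic above the median, there were 13 clock regions, 1 of them higher, in 4 members (1.04 per 100 kb). With 10 kb on each side, 6 clock regions were higher. Without Rora, 10 clock regions remained. Fewer regions pass a stricter limit by construction. The same counts over all genes and all regions were not recomputed under these settings. The values per 100 kb at stricter limits therefore cannot be set beside the 1.41 over all protein-coding genes, which used every listed region. No paired analysis was possible because each group has 1 library. Depth behind each level is unknown and limits every value here, since a level over few reads cannot be told from a precise one.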
